A study of Mus musculus with 12 samples.

Results

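Disulfide bonds of secreted and membrane proteins are made in the endoplasmic reticulum by protein disulfide isomerases, enzymes with thioredoxin-like domains whose paired cysteines hand a disulfide on to the folding chain or reshuffle a wrong one. The isomerases are reoxidised by the ERO1 oxidases, and tissues that secrete much collagen or antibody carry much of both. Txndc5 encodes a member of this family that is abundant in endothelial cells, fibroblasts and plasma cells. The gene set described here was chosen by the FPKM of Txndc5, which was lower in the tumors of swimming mice in an earlier look at the same values, and it holds 10 genes of the 30630 listed. They are Txndc5, the isomerases P4hb, Pdia3, Pdia4, Pdia5 and Pdia6, the membrane-bound relative Tmx1, the retention factor Erp44, and the oxidases Ero1l and Ero1lb, found by the symbols that GENCODE M21 gives to the mouse Ensembl identifiers in the files. The question was whether the lower Txndc5 was shared by its family.

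RNA was sequenced from 12 tumors, 6 of the control group and 6 of the swimming group. All were grown from CT-26, a mouse colon carcinoma cell line, injected with Matrigel under the skin of the right flank of male BALB/c mice, and the swimming group was trained in water over 3 weeks while the control group was not. Whole tumor tissue was used, so a value mixes cancer cells with stroma and immune cells, and fewer cells of a type cannot be told apart from less RNA per cell. The values are FPKM, numbers of fragments divided by the length of the gene and by the depth of the library. The depth relative to control 1, read from the commonest ratio between weakly expressed genes, was lowest in control 2 (0.694), and the other tumors had at least 0.871. Of the 8 epithelial markers that were looked at, Krt8, Krt18, Krt19 and Cdh1 passed the filter on low values. Krt8 was between 1.86 and 129 FPKM and Krt18 between 5.89 and 14.75 FPKM. Krt19 and Cdh1 reached at most 0.757 and 0.43 FPKM. Epcam, Krt7, Cldn4 and Cldn7 did not pass the filter and reached at most 0.177, 0.0398, 0.0515 and 0.0494 FPKM.

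Promoters of the unfolded protein response often carry an element called ERSE, which is CCAAT and CCACG with 9 bases of any kind between them. Promoter stretches are shown here as a description, and a link between such elements and the variation between tumors was not tested. In RefSeq promoter windows on GRCm38.p6, from 250 bases before to 50 bases after a start, all 10 genes were found, with 13 starts. The ERSE was present on either strand at 2 genes, Pdia6 and Ero1lb, in 2 of the 13 windows, against 0.119% of all 32851 windows. The letters TGACGTGG are the core of another element of this response. They were present at 1 gene, Txndc5, in 1 of the 13 windows, against 0.676% of all windows. In the following stretches, written 5′ to 3′ on the strand of the gene, capitals mark ERSE, TGACGTGG, CCAAT and ACGTG on either strand, and the shorter letters can lie within the longer elements.
Txndc5, the first start, chr13:38528825-38528924, minus strand: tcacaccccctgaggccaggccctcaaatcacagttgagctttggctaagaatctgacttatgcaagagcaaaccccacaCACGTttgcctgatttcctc
Txndc5, the third start, chr13:38527965-38528064, minus strand: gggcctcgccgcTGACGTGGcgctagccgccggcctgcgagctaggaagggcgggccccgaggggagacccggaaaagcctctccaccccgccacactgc
Pdia4, chr6:47813563-47813642, minus strand: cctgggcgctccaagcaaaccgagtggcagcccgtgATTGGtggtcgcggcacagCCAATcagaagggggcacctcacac
Pdia6, chr12:17266449-17266538, plus strand: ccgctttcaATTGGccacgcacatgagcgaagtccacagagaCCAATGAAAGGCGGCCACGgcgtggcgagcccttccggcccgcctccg
Ero1lb, chr13:12565663-12565722, plus strand: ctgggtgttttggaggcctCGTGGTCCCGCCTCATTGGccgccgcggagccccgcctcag
Counted from the start, the ERSE of Pdia6 lay at -98 to -80, and that of Ero1lb lay on the opposite strand at -201 to -183. Pdia4 held the CCAAT box on both strands but no complete ERSE. The CCAAT box alone was present at 6 of the 10 genes, in 7 of their 13 windows, against 37.4% of all windows. ACGTG is the core to which hypoxia-inducible factors bind. It was present at 6 of the 10 genes, in 8 of the 13 windows, against 19.6% of all windows. The 2 windows of Erp44 overlap, so they are not separate. No CCAAT box was found at any of the 3 starts of Txndc5. These are matches of letters, and binding was not measured.

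Txndc5 (ENSMUSG00000038991, chromosome 13, 38500079 to 38528824 in GRCm38, minus strand, with 4 annotated transcripts) was 83.5, 82.6, 72.9, 48.05, 81.3 and 78.8 FPKM in control 1 to 6. In swimming 1 to 6 it was 42.9, 38.7, 43.5, 42.4, 43.9 and 37.9 FPKM. The groups did not overlap, but control 4 lay close to the swimming tumors, at 1.09 times the highest of them, while the other 5 control tumors were at 72.9 FPKM or more. The mean was 74.5 ± 13.5 FPKM (SD, n = 6) in control tumors and 41.6 ± 2.61 FPKM (SD, n = 6) in swimming tumors, a ratio of 0.558 and a difference of -0.81 on the log2(FPKM + 1) scale. Since the gene was chosen for this difference, it is given as a description with no p. Groups that did not overlap and were lower in the swimming group were found for 0.0684% of the 19018 genes compared.

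The spread of Txndc5 was unequal. Its SD was 13.5 FPKM among the control tumors and 2.61 FPKM among the swimming tumors, and control 4 alone made up 72.5% of the sum of squares within the groups. In the same tumor Krt8, a keratin of simple epithelia, was at 129 FPKM, while it reached at most 19.95 FPKM in the other 11 tumors. Control 4 also had the highest Pdia4 and Pdia6 of all 12 tumors and the highest Pdia3 of the control group. Without control 4 the difference of Txndc5 was -0.93. The exons of Txndc5 overlap those of Bmp6 and of the antisense gene Gm31834 on the opposite strand, which reached at most 0.763 and 0.337 FPKM in any tumor. The deposited value is a single number for the gene, and its transcripts were not analysed here.

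**Figure D1:**
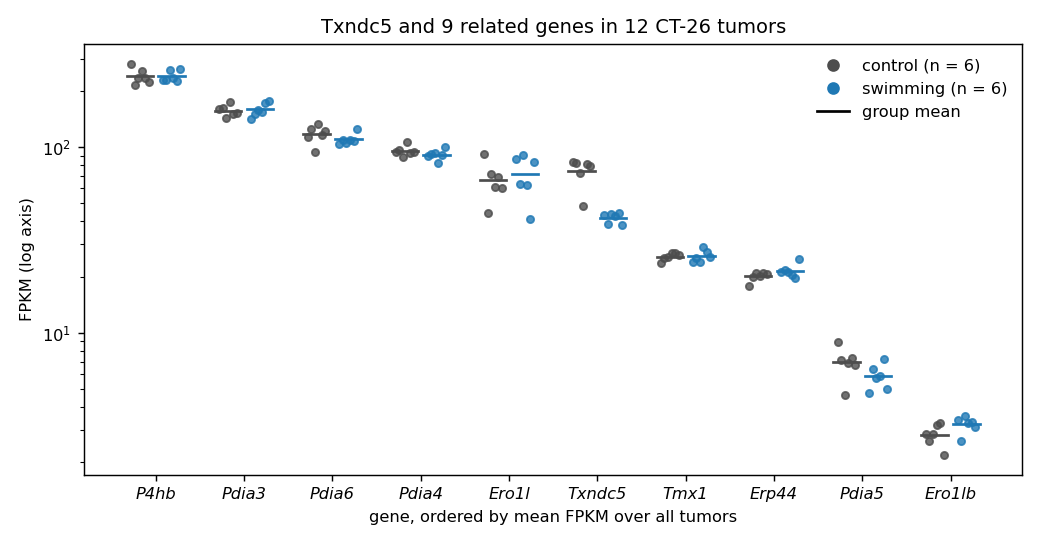
FPKM of Txndc5 and 9 related genes (log axis) in each of 12 CT-26 tumors, with the 6 control tumors in grey, the 6 swimming tumors in blue and a line at each group mean. The swimming tumors lie between 37.9 and 43.9 FPKM for Txndc5, below all control tumors, and the groups overlap for the other 9 genes. Over all 19018 genes compared, the groups did not overlap, in either direction, for 0.147%, so overlap is the usual case.

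The levels of the 10 genes spanned an 80.1-fold range of mean FPKM. The order from high to low over all 12 tumors was P4hb, Pdia3, Pdia6, Pdia4, Ero1l, Txndc5, Tmx1, Erp44, Pdia5 and Ero1lb. P4hb, the classical isomerase and also a subunit of the prolyl 4-hydroxylase that modifies collagen, was at 242 ± 19.45 FPKM (SD, n = 12), and Ero1lb, an oxidase known from the endocrine pancreas, was at 3.02 ± 0.399 FPKM (SD, n = 12). Each gene was above the next in this order in all 12 tumors, with the exception of Ero1l, which was above Txndc5 in 7 of 12 tumors, and in the control group alone Txndc5 had the higher mean. The order was set from the same 12 tumors and Txndc5 was chosen by its values, so these counts are a description with no p. The level of Txndc5 was below those of P4hb, Pdia3, Pdia4 and Pdia6 in every tumor. Its share of the summed FPKM of the 10 genes was between 5.72% and 10.55% in the control group, with a median of 9.80%. In the swimming group it was between 4.48% and 5.92%, with a median of 5.54%, and control 4 had the 5.72%.

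None of the other 9 genes passed the test between the groups. By limma, with Benjamini-Hochberg adjustment over all 19018 genes compared, 0 of the 9 passed an adjusted p of 0.05, against 0% of all genes. The smallest adjusted p among the 9 was 0.899. At an unadjusted p below 0.05 there were also 0 of the 9, against 5.56% of all genes. The differences ran from -0.21 to 0.14 on the log2 scale, 4 negative and 5 positive, with a median of 0.00 beside a median of 0.00 over all genes. The lowest bound of the 95% intervals of the 9 differences was -0.48, in Pdia5, and the highest was 0.52, in Ero1l. The difference between Txndc5 and its relatives was not tested, since Txndc5 was chosen for its value.

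**Figure D2:**
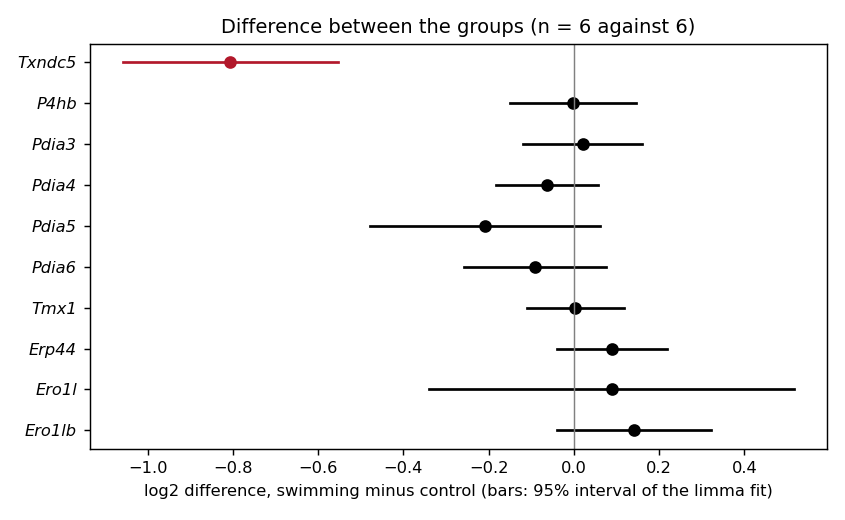
Difference between the groups on the log2(FPKM + 1) scale (swimming minus control, n = 6 against 6) for each of the 10 genes, with bars for the 95% interval of the limma fit. Txndc5, in red, lies at -0.81 and was chosen for this difference, so its bar is a description and no test. The intervals of the other 9 genes all include 0.

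In GRCm38 the isomerase genes lie apart from each other. They are P4hb (ENSMUSG00000025130) on chromosome 11 from 120560298 to 120573253, Pdia3 (ENSMUSG00000027248) on chromosome 2 from 121413775 to 121438687, Pdia4 (ENSMUSG00000025823) on chromosome 6 from 47796141 to 47813430, Pdia5 (ENSMUSG00000022844) on chromosome 16 from 35397312 to 35490873, Pdia6 (ENSMUSG00000020571) on chromosome 12 from 17266545 to 17284770. The other relatives are Tmx1 (ENSMUSG00000021072) on chromosome 12 from 70453095 to 70468040 and Erp44 (ENSMUSG00000028343) on chromosome 4 from 48193323 to 48279558. The oxidase genes are Ero1l (ENSMUSG00000021831) on chromosome 14 from 45283087 to 45318771 and Ero1lb (ENSMUSG00000057069) on chromosome 13 from 12565874 to 12611396, the latter on the same chromosome as Txndc5. Exons of Pdia3 overlap Catsper2 on the opposite strand, which was at most 0.75 FPKM, and those of Pdia6 overlap Atp6v1c2, at most 0.093 FPKM.

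Among the isomerases, P4hb was between 217 and 282 FPKM in control tumors (median 236) and between 227 and 262 FPKM in swimming tumors (median 233). Its difference was -0.00 (95% interval -0.15 to 0.15, adjusted p = 0.998 in limma's test). The groups lay on top of each other, and control 1 had the highest value. Pdia3, which acts on glycoproteins together with calnexin and calreticulin and is part of the loading complex of MHC class I, was between 144 and 176 FPKM in control tumors and between 143 and 178 FPKM in swimming tumors. Its difference was 0.02 (95% interval -0.12 to 0.16, adjusted p = 0.981 in limma's test). Pdia4 was between 88.0 and 107 FPKM and between 82.0 and 101 FPKM, with a difference of -0.06 (95% interval -0.18 to 0.06). In 5 of 6 swimming tumors it was below the control median.

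Pdia6, which works with the chaperone BiP, was between 94.2 and 134 FPKM in control tumors (median 120) and between 104 and 125 FPKM in swimming tumors (median 109). The difference was -0.09 (95% interval -0.26 to 0.08, adjusted p = 0.927 in limma's test), and 5 of 6 swimming tumors were below the control median. Pdia5, the weakest of the isomerases, was between 4.62 and 8.96 FPKM in control tumors and between 4.74 and 7.20 FPKM in swimming tumors. Its difference was -0.21 (95% interval -0.48 to 0.06, adjusted p = 0.899 in limma's test), the lowest of the 9, and 5 of 6 swimming tumors were below the control median. The lowest value of Pdia5, like the highest, was in a control tumor. For Tmx1, which is anchored in the membrane of the endoplasmic reticulum, the groups spanned 23.9 to 26.9 and 24.0 to 28.9 FPKM, and the difference was 0.00 (95% interval -0.11 to 0.12).

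Erp44 retains oxidases and unassembled proteins in the early secretory pathway. It was between 17.8 and 21.1 FPKM in control tumors and between 19.7 and 24.9 FPKM in swimming tumors, a difference of 0.09 (95% interval -0.04 to 0.22, adjusted p = 0.907 in limma's test). The oxidase Ero1l, which is induced by hypoxia, was between 44.4 and 92.4 FPKM (median 64.9) and between 41.1 and 91.3 FPKM (median 73.3). Its difference was 0.09 (95% interval -0.34 to 0.52), the widest interval of the 10. Ero1l varied most within the groups, with a coefficient of variation of 25.4%, against 6.11% for Tmx1. Ero1lb was between 2.19 and 3.27 FPKM and between 2.62 and 3.58 FPKM, a difference of 0.14 (95% interval -0.04 to 0.32, adjusted p = 0.899 in limma's test), and 5 of 6 swimming tumors were above the control median.

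Other genes of oxidative folding were looked at as a list. Of 22 such genes, among them the reductase Dnajc10, the peroxidases Prdx4, Gpx7 and Gpx8, the oxidase Qsox1 and further thioredoxin-like proteins, 19 were listed in the files, and 18 of these passed the filter, with the exception of Pdia2. At an unadjusted p below 0.05, 0 were higher and 0 were lower, against 3.11% and 2.46% of all genes, and 0 passed an adjusted p of 0.05 by limma. Their median difference was -0.03, with 6 positive and 12 negative. Dnajc10 was 48.8 ± 2.54 FPKM in control tumors and 48.5 ± 2.39 FPKM in swimming tumors (SD, n = 6 each). Prdx4, a peroxidase that oxidises isomerases with hydrogen peroxide, was 40.0 ± 2.32 and 38.3 ± 2.20 FPKM. The lowest difference of the list was -0.35 in Vkorc1l1, a relative of the vitamin K epoxide reductase, whose 95% interval ran from -1.47 to 0.78.

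Of 12 proteins that form complexes with members of the family, 2 were higher and 0 were lower at an unadjusted p below 0.05, against 3.11% and 2.46% of all genes, and 0 passed an adjusted p of 0.05. Tapbp, or tapasin, which holds Pdia3 in the MHC class I loading complex, was 75.3 ± 9.65 FPKM in control tumors and 98.0 ± 21.04 FPKM in swimming tumors (SD, n = 6 each), a difference of 0.35 (adjusted p = 0.889 in limma's test). P4ha1, a catalytic subunit of prolyl 4-hydroxylase that needs P4hb, was 45.6 ± 5.69 and 55.0 ± 10.2 FPKM, a difference of 0.25 (adjusted p = 0.889 in limma's test). Their partners Pdia3 and P4hb had differences of 0.02 and -0.00. Calr and Canx, the lectin chaperones that recruit Pdia3, had differences of 0.02 and 0.03.

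Of 25 chaperones and targets of the unfolded protein response, 0 were higher and 0 lower at an unadjusted p below 0.05, against 3.11% and 2.46% of all genes. Their median difference was -0.06, with 7 positive and 18 negative, where 48.3% of all genes had a negative difference. Hspa5, which encodes BiP, was between 238 and 330 FPKM in control tumors and between 196 and 328 FPKM in swimming tumors. The difference was -0.18 (95% interval -0.48 to 0.11, adjusted p = 0.917 in limma's test).

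Markers of cell types that the tumors could hold were looked at beside Txndc5. Of 11 plasma cell markers, 4 (Jchain, Igha, Igkc and Derl3) were higher and 0 lower in the swimming group at an unadjusted p below 0.05, against 3.11% and 2.46% of all genes, and 0 passed an adjusted p of 0.05. The differences were positive for 9 and negative for 2, Pou2af1 (-0.09) and Sdc1 (-0.04), with a median of 0.41, and 0 of the 11 were at 0 in all tumors. The summed level of the 11 genes was between 27.25 and 67.0 FPKM in control tumors (median 36.1) and between 34.8 and 120 FPKM in swimming tumors (median 73.4). Igkc, the constant region of the kappa light chain, was at 57.6, 56.7 and 50.01 FPKM in swimming 3, 5 and 6, and at 10.5, 8.80 and 17.7 FPKM in swimming 1, 2 and 4. In control tumors Igkc was between 4.26 and 25.5 FPKM, and control 1, the highest, was above swimming 1, 2 and 4. Jchain and Igha were also highest in swimming 3, 5 and 6, so these markers were not separate of each other. Derl3 lay near the filter of 0.1 FPKM, at 0.0679 to 0.171 FPKM in control tumors and 0.161 to 0.239 FPKM in swimming tumors. Of the 11 fibroblast, 8 endothelial and 7 macrophage markers, 0 were higher and 0 lower at an unadjusted p below 0.05, and their medians were 0.06, 0.03 and 0.09. Summed fibroblast markers were between 527 and 1214 FPKM in control tumors and between 658 and 1125 FPKM in swimming tumors. Of 7 skeletal muscle markers and 4 adipocyte markers compared, also 0 were higher and 0 lower at an unadjusted p below 0.05. The part of these cells in the value of Txndc5 was not tested beyond the relations that follow.

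With the group means removed, so that the difference between the groups is not used, Txndc5 was compared across the 12 tumors with 6 gene lists. The largest Pearson r in size was that with the 4 epithelial markers of 8 that passed the filter (Pearson r = -0.737, permutation p = 0.122, adjusted p = 0.337 over 6 relations; Spearman rho = -0.399, permutation p = 0.214, adjusted p = 0.322). It rested on control 4, and without that tumor r was 0.20 and without control 3 and control 4, the farthest from the median of that list, -0.24. For the fibroblast markers r was 0.473 (permutation p = 0.169, adjusted p = 0.337) and rho was 0.615 (permutation p = 0.0376, adjusted p = 0.226). When the tumors farthest from the median of that list, control 1 and swimming 5, were left out, r was 0.403, and within the control and the swimming group it was 0.448 and 0.787. For the chaperones and targets of the unfolded protein response r was -0.432 (permutation p = 0.0759, adjusted p = 0.337) and rho was -0.392 (permutation p = 0.151, adjusted p = 0.322). When control 3 and swimming 4 were left out r was -0.585. For plasma cell markers r was 0.249 (permutation p = 0.327, adjusted p = 0.427) and rho was 0.357 (permutation p = 0.167, adjusted p = 0.322), and r was 0.0683 with the 2 farthest tumors left out. For endothelial markers r was 0.293 (permutation p = 0.356, adjusted p = 0.427) and rho was 0.371 (permutation p = 0.279, adjusted p = 0.335), and r was 0.0693 with the 2 farthest tumors left out. For macrophage markers r was -0.0811 (permutation p = 0.842, adjusted p = 0.842) and rho was 0.28 (permutation p = 0.424, adjusted p = 0.424), and r was -0.352 with the 2 farthest tumors left out. Without control 4, r was 0.659 for fibroblast, 0.621 for endothelial, 0.636 for macrophage and 0.415 for plasma cell markers. For the chaperones and targets of the unfolded protein response it was then -0.324. These values without control 4 were not tested. Over all 12 tumors no relation passed after adjustment.

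Among the other 9 genes, some varied together between tumors. These correlations, with the group means removed, are a description over 12 tumors that share their libraries, and no p is given. Pdia3, Pdia4 and Pdia6 formed a block, with r of 0.717 between Pdia3 and Pdia4, 0.726 between Pdia3 and Pdia6, and 0.745 between Pdia4 and Pdia6. With any 1 tumor left out, these stayed at or above 0.596, 0.638 and 0.649. P4hb was not part of the block (r = 0.365, 0.370 and 0.134) but varied with Ero1l (r = 0.709, and between 0.612 and 0.812 with 1 tumor left out). The median over the 36 pairs without Txndc5 was 0.119. Txndc5 had a negative r with 7 of the 9, with a median of -0.25 and the lowest with Pdia4 (-0.623). Without control 4 the median was -0.0112, with 5 of the 9 negative. The r with Pdia3, Pdia4 and Pdia6 was then 0.0903, -0.176 and 0.0589, while that with Erp44 was -0.74 (-0.305 over 12 tumors), that with Pdia5 0.593 (0.201 over 12 tumors) and that with Ero1lb 0.43 (-0.174 over 12 tumors).

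**Figure D3:**
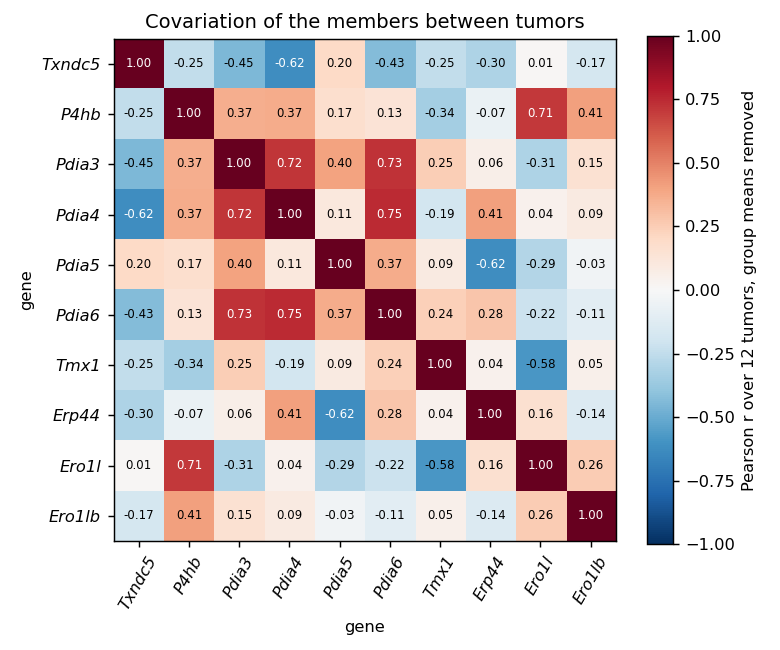
Pearson r between the log2(FPKM + 1) values of each pair of the 10 genes over 12 tumors with the group means removed, from -1 in blue to 1 in red. Pdia3, Pdia4 and Pdia6 have r between 0.717 and 0.745 among themselves, and P4hb and Ero1l have 0.709. Txndc5 has a negative r with 7 of the other 9 genes. Of the 36 pairs without Txndc5, 25 are positive, and the lowest r is -0.623, between Pdia5 and Erp44.

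Ero1l varied with the genes induced by hypoxia. A list of 12 such genes, Vegfa among them, was summarised in each tumor by the mean of the log2 deviations of its genes, a relation looked at after the values had been seen. The permutation p below were adjusted over the 10 genes and not for the choice of this list, so they are a description. With the group means removed, r between Ero1l and this score was 0.888 (permutation p = 0.00024, adjusted p = 0.0024 over 10 relations) and rho was 0.818 (permutation p = 0.00081, adjusted p = 0.0081). When the tumors farthest from the median of the score, control 1 and swimming 5, were left out, r was 0.686, and within the control and the swimming group it was 0.821 and 0.938. The highest values of Ero1l were 92.4 FPKM in control 1 and 91.3 FPKM in swimming 3, and the lowest were 44.4 FPKM in control 2 and 41.1 FPKM in swimming 5. For P4hb r was 0.669 (permutation p = 0.0211, adjusted p = 0.106) and rho was 0.58 (permutation p = 0.0683, adjusted p = 0.182), and without the same 2 tumors r was 0.379. For Tmx1 r was -0.625 (permutation p = 0.0425, adjusted p = 0.142) and rho was -0.643 (permutation p = 0.0292, adjusted p = 0.146), and for Txndc5 r was 0.211 (permutation p = 0.543, adjusted p = 0.776). Of the 12 genes of the list, 2 (Bnip3 and P4ha1, which is also one of the partners above) were higher and 0 lower in the swimming group at an unadjusted p below 0.05, against 3.11% and 2.46% of all genes, with a median difference of 0.22, and 0 passed an adjusted p of 0.05.

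**Figure D4:**
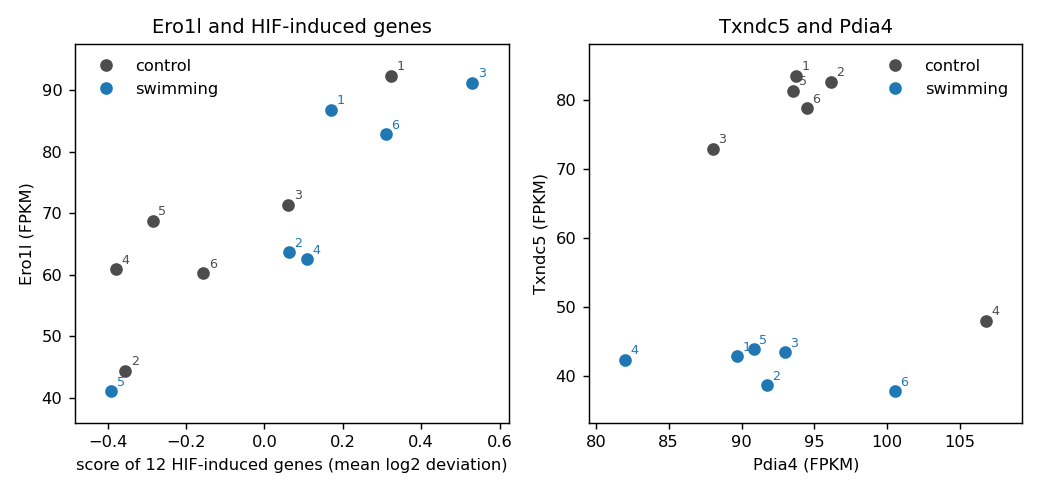
Left, FPKM of Ero1l against the score of 12 genes induced by hypoxia (mean log2 deviation) in the 12 tumors, and right, FPKM of Txndc5 against FPKM of Pdia4, with the replicate number beside each point, control in grey and swimming in blue. Ero1l is highest where the score is high in both groups, and control 4, at 48.05 FPKM of Txndc5 and 107 FPKM of Pdia4, stands apart from the other control tumors.

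The genes whose pattern was most like that of Txndc5 within the groups were taken from the 12788 others with a mean of at least 1 FPKM. Group means were removed, so the difference between the groups played no part. High r are to be found among the best 5 of so many genes by the choice alone, and none was tested. The 5 with the highest r over 12 tumors were Pofut2, which adds fucose to thrombospondin repeats in the endoplasmic reticulum (r = 0.957), Brpf3 (0.934), Gm26737 (0.930), CAAA01147332.1 (0.9285) and Nacc2 (0.911). All 5 were lowest of the control group in control 4, and Pofut2 was at 4.08 FPKM there and at 7.03 FPKM or more in the other control tumors. Without control 4 their r was between 0.584 and 0.790. The 5 genes with the highest r over the other 11 tumors were Syde1, Galt, Nme4, Msrb3 and Chst14, and 0 genes were shared by both sets of 5.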

How the data were processed

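Libraries were depleted of ribosomal RNA, and per the submitters' processing notes HISAT2 2.0.5 was the aligner and StringTie 1.3.3 the quantifier. The methods name the human genome hg38, the submitters' processing notes hg38 and GRCm38, and the files list mouse Ensembl identifiers. The authors deposited 1 FPKM value for each gene, already divided by gene length and depth by the authors, so read numbers and the absolute depth are unknown and counting errors could not be given. Strand use in quantification is not given in the sources used here.

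Of the 30630 identifiers, 30578 are in GENCODE M21, by which they were matched to symbols and GRCm38 coordinates. For comparison, log2(FPKM + 1) was fitted with limma 3.58.1 (R 4.3.3; lmFit, eBayes with trend, 2 groups, no covariate) for 19018 genes that reached 0.1 FPKM in 6 or more tumors, with Benjamini-Hochberg adjustment over all of them, and the fit was tested on simulated data. Correlations used 100000 permutations within groups (Python 3.11.15, scipy 1.17.1, pandas 2.3.3), and plots matplotlib 3.10.9. That the tumors are from separate mice follows from the methods. The 10 genes and the lists were chosen with earlier results of these data known. Genes named are the 10 members, list genes at an unadjusted p below 0.05, markers of lists beside a result, and the 5 most alike to Txndc5. Dnajc10, Prdx4, Vkorc1l1, Hspa5, Calr, Canx and the genes alike without control 4 were named in addition, after their values were seen. Leaving out 1 tumor for the correlations among members and with the genes induced by hypoxia was added after the data were seen.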

Additional observations from a re-analysis of the deposited data

Results flagged for a closer look

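Dixon's ratio was used to find values that stand apart at the end of a group of 6, in 36 such groups, and 5 were found, where chance gives about 1 in 20, or 1.8. Txndc5 was 48.05 FPKM in control 4, with the nearest control tumor at 72.9 FPKM, and its share of the summed FPKM of the 10 genes was 5.72% there, with the nearest at 9.49%. Both describe the same value. Pdia6 was 125 FPKM in swimming 6, with the other swimming tumors at or below 110 FPKM. Erp44 was 17.8 FPKM in control 1, with the other control tumors at or above 20.1 FPKM. The score of macrophage markers was 0.394 in swimming 5, with the other swimming tumors at or below -0.0123.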

How the results depend on the processing

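Among the alternatives, pseudocounts of 0.1 and 0.01, no filter, a filter of 1 FPKM, quantile normalization, trimmed mean scaling, eBayes without trend, sample weights and the replicate block left the difference of Txndc5 between -0.83 and -0.79, and leaving out 1 tumor between -0.93 (control 4) and -0.77 (control 1). In the 189 such fits of the other 9 genes, 0 had an adjusted p below 0.05, and the smallest was 0.697. The difference of P4hb was 0.02648 with sample weights, and that of Tmx1 was -0.003126 with trimmed mean scaling and -0.009112 with sample weights, where the main values were -0.00 and 0.00. With 1 tumor left out the sign also changed for P4hb (-0.03152 to 0.04358), Pdia3 (-0.01122 to 0.053), Tmx1 (-0.02807 to 0.02379) and Ero1l (-0.01847 to 0.24). It stayed the same, but the value moved by 1.5 times or more, for Pdia4, Pdia5, Pdia6, Erp44 and Ero1lb. Pdia4 was -0.03 without control 4 and -0.03 without swimming 4, and Pdia5 was -0.14 without control 1. Pdia6 was -0.15 without control 3 and -0.05 without control 4. Erp44 was 0.05 without swimming 6 and 0.06 without control 1, and Ero1lb was 0.09 without control 6. The cause was not tested. The relations of Txndc5 with epithelial markers (-0.864 to 0.200) and macrophage markers (-0.219 to 0.636) changed sign without control 4.

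Over all genes, 1058 had an unadjusted p below 0.05, and between 729 and 1445 did under the alternatives. With sample weights 1 gene had an adjusted p below 0.05, and with 1 tumor left out there were 0 to 3. These counts include Txndc5, with sample weights and without control 4, which supports nothing about it, since it was chosen for this difference. The others were Atp6v0c and Phospho2 without control 4, and Klf9 and Gm13419 without swimming 1. With the replicate number as a block there were 0, and 892 at an unadjusted p below 0.05. Deviations of same-numbered tumors had a mean r of -0.12, beside 0.02459 for tumors of other numbers. Taken over 6 pairs with group means removed, this cannot exclude a pairing, and the labels share only the number. With the block r between Txndc5 and the targets of the unfolded protein response was -0.832, beside -0.432 without it, and no p was computed for this value. With group and replicate means both removed, same-numbered tumors mirror each other, so this r rests on 6 pairs and not on 12 tumors. For 10 of 10 genes the mean level in the control group alone was within 1 SD of that over all tumors. With groups of equal size this holds for any values, so it is no check of the levels. FPKM gives no read numbers, so the precision of weak genes, such as Ero1lb, is limited most in control 2.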
